A study of Mus musculus with 9 samples.

Results

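A set of 10 target genes of the tumour suppressor p53 were followed through mouse pluripotent stem cells kept in 3 cultures: Mdm2, Ccng1, Trp53inp1, Btg2, Plk2, Phlda3, Sesn2, Perp, Eda2r and Bbc3. They were chosen by gene symbol, as probe sets that carry that symbol alone, and all 10 were found among the 19938 genes with a probe set of their own, each with 1 probe set. RNA was measured on 9 arrays, 3 per group. Epiblast stem cells (EpiSCs), which resemble the primed epiblast of the implanted embryo, came in 2 groups of strain CD1. One was kept in CHIR99021 (3 µM), an inhibitor of GSK3, and XAV939 (2 µM), which inhibits tankyrase and so stabilises Axin. The other was kept in FGF2 and activin, growth factors listed at 10 ng/ml each. Embryonic stem cells (ESCs) of strain 129, which resemble the naive epiblast of the blastocyst, were kept in 2i, commonly CHIR99021 with PD0325901 (1 µM), a MEK inhibitor that blocks ERK signalling. A basal medium with 10% fetal bovine serum was listed for all samples, and no group name mentions serum. The labels list the agents and doses for all samples together, so their assignment to groups rests on the group names. Strain and the MEK inhibitor therefore both go with cell type in every comparison against ESCs and cannot be told apart from it.

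p53 is a transcription factor that is held at a low level by the ubiquitin ligase Mdm2 and is stabilised when DNA is damaged or growth is disturbed. It then switches on genes that halt the cell cycle, dampen growth signalling, repair DNA or trigger apoptosis, and among them is Mdm2 itself, which closes a negative feedback loop. Pluripotent stem cells are known for a high amount of p53 protein and a readiness to die after damage. Several p53 targets also answer to other signals: Btg2 and Plk2 are induced by serum and growth factors, Perp is part of desmosomes and a target of the related factor p63 in skin, and Sesn2 is induced by ATF4 under amino acid shortage. These arrays measured RNA, and no p53 protein or activity.

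Promoter windows from RefSeq (GRCm38.p6), which span 250 bases before to 50 bases after a gene's start, were at hand for 8 of the 10 genes and were searched for the p53 half-site, the consensus that p53 binds as a pair of copies. The half-site is its own reverse complement, so 1 search covers both strands and no other motif was searched. It occurred in 2 of the 10 windows of these genes, those of Mdm2 and Ccng1, and in 8.36% of all 32851 windows. Both are shown because they held a match, with the half-site in capitals. The Mdm2 window is chr10:117710709-117711008 on the minus strand, and its half-site spans bases 186 to 177 before the start. The Ccng1 window is chr11:40755237-40755536 on the minus strand, with the half-site 185 to 176 bases before the start.
Mdm2: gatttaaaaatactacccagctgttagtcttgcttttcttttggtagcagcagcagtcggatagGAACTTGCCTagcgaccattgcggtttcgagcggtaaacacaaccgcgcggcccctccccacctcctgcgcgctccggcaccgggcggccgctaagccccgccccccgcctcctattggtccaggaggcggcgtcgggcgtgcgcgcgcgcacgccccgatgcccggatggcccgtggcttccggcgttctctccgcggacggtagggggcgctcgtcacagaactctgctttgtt
Ccng1: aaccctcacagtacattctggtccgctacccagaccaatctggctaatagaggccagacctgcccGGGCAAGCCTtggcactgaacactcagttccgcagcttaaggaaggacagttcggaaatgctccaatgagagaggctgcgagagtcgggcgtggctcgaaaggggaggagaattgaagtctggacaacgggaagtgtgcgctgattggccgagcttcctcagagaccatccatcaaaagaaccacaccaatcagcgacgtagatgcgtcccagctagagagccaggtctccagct
A match of letters is no evidence of binding, and the other windows merely lack these letters. The response elements known for Mdm2 lie in an intron, outside this window.

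Markers of cell state differed between the groups. All 8 naive markers tested, such as Esrrb and Zfp42, fell and all 6 primed markers, such as Fgf5 and Otx2, rose in either EpiSC group against ESCs (limma, adjusted p under 0.05), while Pou5f1, the shared pluripotency factor, was at 11.59 in CHIR/XAV EpiSCs, 11.68 in FGF2/activin EpiSCs and 11.33 in ESCs. Of 10 differentiation markers, 4 were lower and 0 higher in CHIR/XAV EpiSCs against ESCs (limma; 5 and 1 at an unadjusted p under 0.05), and 5 were lower and 1 higher in FGF2/activin EpiSCs. Pax6 averaged 5.01 ± 0.09 in CHIR/XAV EpiSCs, 4.81 ± 0.21 in FGF2/activin EpiSCs and 6.76 ± 0.02 in ESCs, and Cdx2 averaged 4.90 ± 0.14 in CHIR/XAV EpiSCs, 5.14 ± 0.09 in FGF2/activin EpiSCs and 5.97 ± 0.03 in ESCs, so both were highest on the ESC arrays. Among fibroblast and feeder cell markers, Lum and Dcn lay between 4.17 and 4.61 on every array, against array medians of 5.57 to 5.65 on the log2 scale. Over all 10 such markers the mean was 5.27 to 5.35 on the CHIR/XAV arrays, 5.15 to 5.19 on the FGF2/activin arrays and 5.15 to 5.17 on the ESC arrays. Col1a1 of that list lay above those medians on every array, at 5.90 to 6.11, and Twist2 did so in FGF2/activin EpiSCs, at 5.68 to 5.71. Thy1 differed most, at 7.05 to 7.30 in CHIR/XAV EpiSCs, 5.53 to 5.84 in FGF2/activin EpiSCs and 5.40 to 5.49 in ESCs. Sex-linked genes set the groups apart: Xist, the RNA that coats an inactive X chromosome, was at 8.90 to 9.45 in CHIR/XAV EpiSCs, 4.31 to 4.45 in FGF2/activin EpiSCs and 4.41 to 4.76 in ESCs. The Y-linked Uty ran the opposite way, at 4.23 to 4.31, 9.35 to 9.39 and 8.71 to 8.97 in the same order of groups, and Eif2s3y likewise was low in CHIR/XAV EpiSCs alone. Kdm5d, also Y-linked, broke this pattern, at 4.66 to 4.83 in CHIR/XAV EpiSCs, 8.45 to 8.65 in FGF2/activin EpiSCs and 4.64 to 4.87 in ESCs. The EpiSC groups therefore differ in these genes as well as in medium, and cell line cannot be told apart from culture between them. The labels do not say whether the 3 arrays of each group are separate cultures, and the p-values thus reflect array-to-array spread that may be only technical.

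Of the 10 genes, 8 had their highest level in FGF2/activin EpiSCs, Sesn2 had its highest in ESCs, and Bbc3 was dim everywhere. All values are log2 expression as the authors summarised it, with SD over n = 3 arrays. Levels of different genes come from different probe sets and are not compared with each other.

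**Figure D1:**
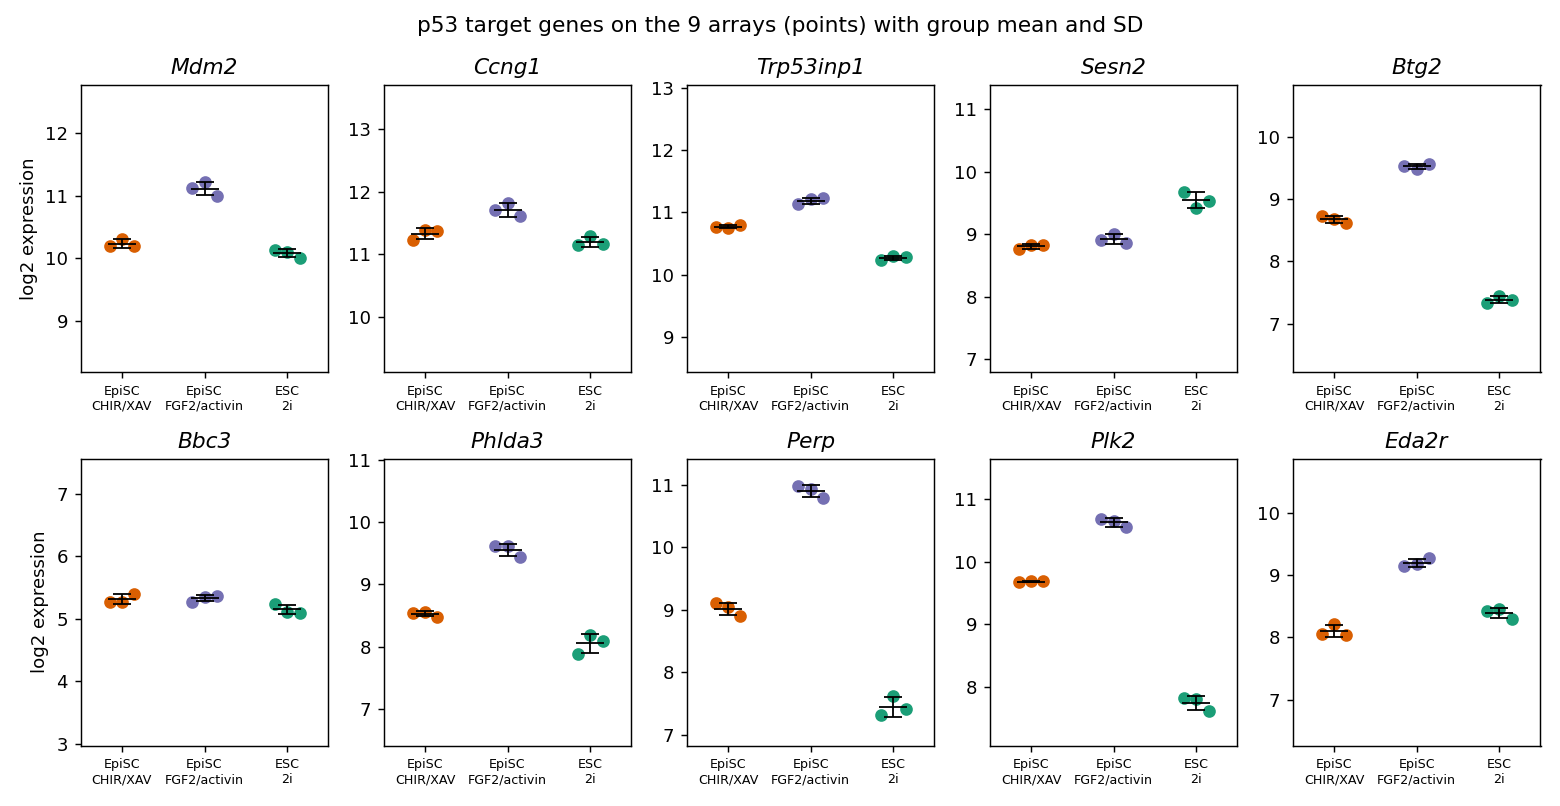
Log2 expression of the 10 p53 target genes (1 panel each) on the 3 arrays of CHIR/XAV EpiSCs, FGF2/activin EpiSCs and ESCs; points are arrays, bars the group mean and SD, and every panel spans the same width in log2 units. Perp, Plk2, Btg2, Phlda3 and Trp53inp1 are highest in FGF2/activin EpiSCs, intermediate in CHIR/XAV EpiSCs and lowest in ESCs, Mdm2, Ccng1 and Eda2r are raised in FGF2/activin EpiSCs, and Sesn2 is highest in ESCs.

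The genes that feed back on p53 were raised mainly in FGF2/activin EpiSCs. Mdm2, the ligase that marks p53 for degradation (chromosome 10), measured 10.19, 10.31 and 10.20 in CHIR/XAV EpiSCs, 11.126, 11.216 and 11.005 in FGF2/activin EpiSCs, and 10.13, 10.10 and 10.01 in ESCs. The FGF2/activin arrays lay above all others, by more than the spread within any group, and the CHIR/XAV arrays lay just above the ESC arrays without overlap. Against ESCs, Mdm2 rose by 1.04 (SE 0.073, adjusted p = 2.36e-08, limma) in FGF2/activin EpiSCs, or 2.05-fold, but the difference of 0.16 in CHIR/XAV EpiSCs missed the threshold (adjusted p = 0.101, limma; 95% interval -0.0029 to 0.31). It passed with a variance trend and robust variance, with adjusted p = 0.0329, while the other alternatives to the same test gave adjusted p of 0.0681 to 0.532. Between the EpiSC cultures, Mdm2 was lower in CHIR/XAV by 0.88 on the log2 scale (log2 change -0.88, adjusted p = 3.22e-07, limma).

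Ccng1, which encodes cyclin G1, a partner of protein phosphatase 2A that acts on Mdm2 (chromosome 11), followed the same course with a smaller step. Its values were 11.23, 11.39 and 11.37 in CHIR/XAV EpiSCs, 11.71, 11.82 and 11.61 in FGF2/activin EpiSCs, and 11.14, 11.29 and 11.16 in ESCs. The FGF2/activin arrays again stood above the rest, whereas the CHIR/XAV and ESC arrays overlapped. Ccng1 rose by 0.51 (SE 0.076, adjusted p = 5.74e-05, limma) in FGF2/activin EpiSCs against ESCs. In CHIR/XAV EpiSCs the difference from ESCs was 0.13 (adjusted p = 0.182, limma; 95% interval -0.034 to 0.30), and that from FGF2/activin EpiSCs was -0.38 (adjusted p = 0.00118).

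Trp53inp1, a stress-induced nuclear protein that promotes the apoptotic activity of p53 and autophagy (chromosome 4), differed between all groups. It measured 10.77, 10.75 and 10.79 in CHIR/XAV EpiSCs, 11.13, 11.21 and 11.22 in FGF2/activin EpiSCs, and 10.24, 10.30 and 10.28 in ESCs. No groups overlapped, and the SD within a group was at most 0.05. Trp53inp1 rose by 0.50 (SE 0.062, adjusted p = 1.09e-05, limma) in CHIR/XAV EpiSCs and by 0.92 (SE 0.062, adjusted p = 1.34e-08, limma) in FGF2/activin EpiSCs, both against ESCs. CHIR/XAV EpiSCs stood below FGF2/activin EpiSCs, with a log2 change of -0.42.

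Plk2 and Btg2 are tied to the control of proliferation. Plk2, a polo-like kinase of the cell cycle (chromosome 13), had values of 9.68, 9.69 and 9.69 in CHIR/XAV EpiSCs, 10.68, 10.66 and 10.55 in FGF2/activin EpiSCs, and 7.82, 7.79 and 7.61 in ESCs. Each EpiSC group lay far above ESCs, and the CHIR/XAV arrays agreed within an SD of 0.0078. Plk2 rose by 1.94 (SE 0.072, adjusted p = 2.49e-11, limma) in CHIR/XAV EpiSCs, or 3.84-fold, and by 2.89 (SE 0.072, adjusted p = 2.84e-13, limma) in FGF2/activin EpiSCs, or 7.41-fold. It was the largest rise of the 10 genes in CHIR/XAV EpiSCs. Between EpiSC cultures the log2 change was -0.95 (SE 0.072, adjusted p = 1.26e-07, limma).

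Btg2, an antiproliferative protein that recruits the CCR4-NOT deadenylase to mRNAs (chromosome 1), stood at 8.72, 8.68 and 8.61 in CHIR/XAV EpiSCs, 9.53, 9.48 and 9.56 in FGF2/activin EpiSCs, and 7.33, 7.45 and 7.38 in ESCs. Its groups did not overlap and kept the same order as those of Plk2. The rise against ESCs was 1.29 (SE 0.065, adjusted p = 6.94e-10, limma) in CHIR/XAV EpiSCs and 2.14 (SE 0.065, adjusted p = 2.03e-12, limma) in FGF2/activin EpiSCs. CHIR/XAV EpiSCs were lower than FGF2/activin EpiSCs, with a log2 change of -0.85 (SE 0.065, adjusted p = 1.22e-07, limma).

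Targets that act on growth signalling went separate ways. Phlda3, a pleckstrin homology protein that keeps the kinase Akt off the membrane (chromosome 1), measured 8.55, 8.56 and 8.48 in CHIR/XAV EpiSCs, 9.61, 9.62 and 9.44 in FGF2/activin EpiSCs, and 7.89, 8.19 and 8.09 in ESCs. The groups did not overlap, and ESCs spread most. Phlda3 rose by 1.495 (SE 0.083, adjusted p = 1.48e-09, limma) in FGF2/activin EpiSCs and by 0.47 (SE 0.083, adjusted p = 0.000262, limma) in CHIR/XAV EpiSCs against ESCs. The step between EpiSC cultures, -1.02 (SE 0.083, adjusted p = 2.4e-07, limma), had a larger estimate than the change of CHIR/XAV EpiSCs against ESCs, although these 2 were not tested against each other.

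Sesn2, a sestrin that senses leucine and restrains mTORC1 (chromosome 4), was the gene that fell in both EpiSC groups. Its values were 8.76, 8.82 and 8.83 in CHIR/XAV EpiSCs, 8.90, 9.01 and 8.85 in FGF2/activin EpiSCs, and 9.68, 9.43 and 9.54 in ESCs. All ESC arrays lay above all EpiSC arrays, and the 2 EpiSC groups lay close together without passing the threshold between them. Sesn2 fell with a log2 change of -0.74 (SE 0.076, adjusted p = 1.51e-06, limma) in CHIR/XAV EpiSCs, or 1.67-fold lower, and of -0.63 (SE 0.076, adjusted p = 7.38e-06, limma) in FGF2/activin EpiSCs. Between the EpiSC cultures the difference was -0.12 (adjusted p = 0.24, limma; 95% interval -0.28 to 0.047).

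Among targets tied to cell death and the cell surface, Perp showed the widest range of the 10 genes. Perp, a tetraspan membrane protein of apoptosis and of desmosomes (chromosome 10), measured 9.10, 9.04 and 8.90 in CHIR/XAV EpiSCs, 10.99, 10.93 and 10.79 in FGF2/activin EpiSCs, and 7.31, 7.62 and 7.40 in ESCs. The 3 groups were spread far apart, each gap being many times the SD within a group. Perp rose by 3.46 (SE 0.089, adjusted p = 3.83e-13, limma) in FGF2/activin EpiSCs, or 11-fold, and by 1.57 (SE 0.089, adjusted p = 2.66e-09, limma) in CHIR/XAV EpiSCs, or 2.96-fold, against ESCs. CHIR/XAV EpiSCs stood 3.71-fold below FGF2/activin EpiSCs, with a log2 change of -1.89 (SE 0.089, adjusted p = 8.95e-10, limma).

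Eda2r, the X-linked receptor for the A2 form of ectodysplasin in the TNF receptor family, was the gene that went opposite ways in the 2 EpiSC groups. It measured 8.05, 8.21 and 8.04 in CHIR/XAV EpiSCs, 9.14, 9.18 and 9.27 in FGF2/activin EpiSCs, and 8.42, 8.45 and 8.30 in ESCs. FGF2/activin EpiSCs were highest and CHIR/XAV EpiSCs lowest, with no overlap between groups. Against ESCs the log2 change was -0.29 (SE 0.073, adjusted p = 0.00516, limma) in CHIR/XAV EpiSCs and 0.81 (SE 0.073, adjusted p = 3.48e-07, limma) in FGF2/activin EpiSCs, and between the EpiSC cultures it was -1.09 (SE 0.073, adjusted p = 3.46e-08, limma). Xist was high in CHIR/XAV EpiSCs, as given above. Over 424 X-linked genes outside the dimmest 40%, the median log2 change between the EpiSC cultures was -0.051, against -0.045 on the autosomes other than chromosome 15. Against ESCs the X-linked median was 0.19 in CHIR/XAV EpiSCs, where those autosomes had 0.033. In FGF2/activin EpiSCs it was 0.24, where those autosomes had 0.086. The part of the X chromosome in the Eda2r result was not tested.

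Bbc3, which encodes the BH3-only death protein PUMA (chromosome 7), was at 5.27, 5.27 and 5.40 in CHIR/XAV EpiSCs, 5.27, 5.35 and 5.37 in FGF2/activin EpiSCs, and 5.24, 5.12 and 5.10 in ESCs. All these values lie below the array medians, and since detection calls were not used here, they cannot be told from background. The rise of 0.18 in FGF2/activin EpiSCs against ESCs only just passed (adjusted p = 0.0396, limma), and it was lost in 4 of the 9 fits that leave out an array, with adjusted p of 0.101 to 0.116 (without FGF2/activin replicate 2 or 3 or ESC replicate 2 or 3). It was also lost with a variance trend and robust variance (adjusted p = 0.0681) and after centring on the 19938 genes (adjusted p = 0.207). The differences were 0.16 between CHIR/XAV EpiSCs and ESCs (adjusted p = 0.0689, limma; 0.0451 with medians centred, 0.0195 with quantiles equalised and 0.04 without ESC replicate 1) and -0.014 between the EpiSC cultures (adjusted p = 0.892).

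The 10 genes were then counted in each comparison and set beside all genes, of which a large share changed. In CHIR/XAV EpiSCs against ESCs 5 of the 10 were higher (Plk2, Perp, Btg2, Trp53inp1 and Phlda3) and 2 were lower (Sesn2 and Eda2r), where 24.7% of all 19938 genes were higher and 22.1% lower at an adjusted p under 0.05 (limma). Their median log2 change was 0.32, against -0.031 for all genes. In FGF2/activin EpiSCs against ESCs 9 were higher, Bbc3 included, and 1 was lower, where 27.8% of all genes were higher and 33.5% lower. The median was 0.98, against -0.082 for all genes. The split of all calls in that comparison depended on scaling: 45.3% were higher as deposited, 55.1% after each array was centred on the median of its probe sets, and 35% after centring on the median of the 19938 genes. In CHIR/XAV EpiSCs against ESCs 52.7% were higher as deposited and 35% after that last centring, which was chosen after the data were seen. Between CHIR/XAV and FGF2/activin EpiSCs 8 were lower in CHIR/XAV and 0 were higher (limma; also 0 at an unadjusted p under 0.05), where 21.1% of all genes were lower and 20.5% higher. Their median was -0.87, against 0.048 for all genes. The 10 genes, Bbc3 apart, are brighter than most genes. Shares among brighter genes are larger, except that of genes lower in FGF2/activin EpiSCs against ESCs. Over the 11963 genes left without the dimmest 40%, which drops Bbc3, 37.7% were higher and 28.5% lower in CHIR/XAV EpiSCs against ESCs, and 43.3% were higher and 29.3% lower in FGF2/activin EpiSCs against ESCs. Between CHIR/XAV and FGF2/activin EpiSCs 34.4% of them were lower and 24.1% higher, and their median was -0.038. The counts among the 9 genes left were 5 higher and 2 lower, 8 higher and 1 lower, and 0 higher and 8 lower in the same 3 comparisons (limma). Of all calls between the EpiSC cultures, 49.2% were higher as deposited and 41.3% after centring on the median of the probe sets. Since the first pair of comparisons share the ESC arrays and each EpiSC group enters 2 comparisons, the counts are not independent of each other.

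A stricter test against a change of 1.5-fold (limma treat) separated the genes by size. In CHIR/XAV EpiSCs against ESCs it kept Plk2, Perp and Btg2, where 6.81% of all genes were called higher and 4.43% lower. In FGF2/activin EpiSCs against ESCs it kept 7 genes, namely Perp, Plk2, Btg2, Phlda3, Mdm2, Trp53inp1 and Eda2r, where 9.03% of all genes were called higher and 4.64% lower. Between the EpiSC cultures 6 genes were lower in CHIR/XAV by that test, namely Perp, Eda2r, Phlda3, Plk2, Mdm2 and Btg2, and 0 were higher, where 3.67% of all genes were called lower and 2.22% higher. Sesn2 passed it in no comparison, with treat adjusted p = 0.226 in CHIR/XAV EpiSCs. These shares describe genes chosen with earlier results known, and no test was made over them as a group.

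**Figure D2:**
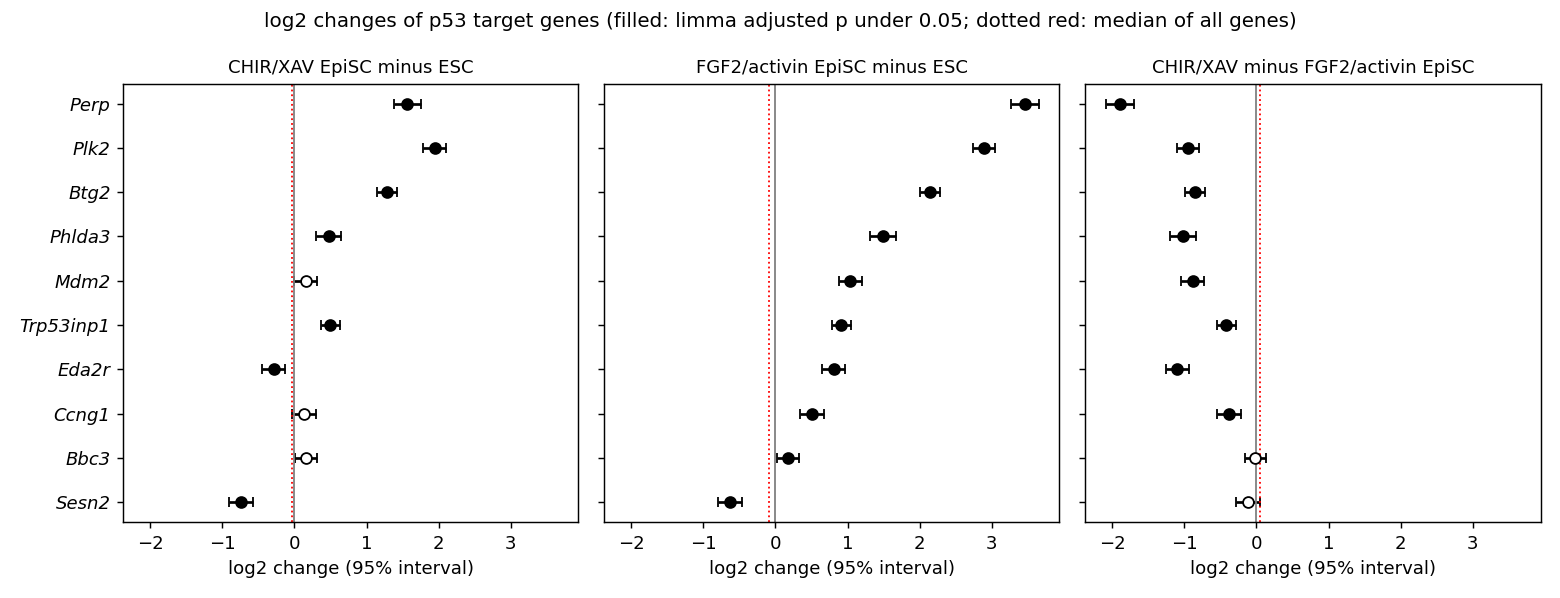
Log2 change with its 95% interval for each of the 10 p53 target genes in CHIR/XAV EpiSCs against ESCs, FGF2/activin EpiSCs against ESCs, and CHIR/XAV against FGF2/activin EpiSCs; filled points passed an adjusted p under 0.05 (limma) and the dotted line is the median of all genes. In the third panel 8 genes lie to the left of 0 with filled points, whereas Bbc3 and Sesn2 are open and near 0.

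Genes that answer to other inputs were set beside these targets. A list of 12 genes induced by ERK signalling, which PD0325901 blocks in the ESC medium, had 9 higher and 1 lower in CHIR/XAV EpiSCs against ESCs and 11 higher and 0 lower in FGF2/activin EpiSCs, where 24.7% and 27.8% of all genes were higher. Between the EpiSC cultures 8 of the 12 were lower in CHIR/XAV, 0 were higher (limma; also 0 at an unadjusted p under 0.05) and 4 were not called, where 21.1% of all genes were lower. Its mean log2 level was 6.90 to 7.01 on the CHIR/XAV arrays, 7.38 to 7.45 on the FGF2/activin arrays and 5.49 to 5.52 on the ESC arrays, the same order as Plk2 and Btg2. Egr1, an early-response zinc finger factor, had a log2 change of 1.48 in CHIR/XAV EpiSCs and 2.57 in FGF2/activin EpiSCs against ESCs, and of -1.10 between the EpiSC cultures. Dusp6, an ERK phosphatase, rose by 4.11 and 4.24 in the same 2 groups, and its difference of -0.13 between them was not called (adjusted p = 0.127, limma). The part of ERK signalling in the levels of Btg2 and Plk2 was not tested.

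Desmosome genes, set beside Perp, were mixed, most clearly in CHIR/XAV EpiSCs against ESCs. Of 8 plaque and cornified envelope genes 3 were higher and 2 lower in CHIR/XAV EpiSCs against ESCs, where 24.7% of all genes were higher and 22.1% lower, so these shares are near those of all genes. In FGF2/activin EpiSCs 5 were higher and 1 lower, where 27.8% of all genes were higher and 33.5% lower. Between the EpiSC cultures 5 were lower and 1 higher in CHIR/XAV, where 21.1% of all genes were lower and 20.5% higher. Dsp, Pkp2 and Ppl rose in both EpiSC groups against ESCs. Evpl fell in FGF2/activin EpiSCs against ESCs (-0.31) and Pkp4 in CHIR/XAV EpiSCs (-0.19). Evpl was also the gene called higher in CHIR/XAV than in FGF2/activin EpiSCs. It averaged 5.55 in CHIR/XAV EpiSCs, 5.38 in FGF2/activin EpiSCs and 5.69 in ESCs, near or below the array medians of 5.57 to 5.65. Pkp1 lay below those medians in every group. The brighter Jup, Dsp, Pkp2 and Pkp4 rose in FGF2/activin EpiSCs against ESCs and were lower in CHIR/XAV than in FGF2/activin EpiSCs. The mean log2 level of the 8 was 7.38 to 7.42 on the CHIR/XAV arrays, 7.93 to 7.94 on the FGF2/activin arrays and 7.09 to 7.13 on the ESC arrays. Dsp (desmoplakin), which links desmosomes to keratin, averaged 8.72 ± 0.14 in CHIR/XAV EpiSCs, 10.46 ± 0.04 in FGF2/activin EpiSCs and 7.58 ± 0.04 in ESCs. Pkp2 (plakophilin 2) averaged 9.09 ± 0.05 in CHIR/XAV EpiSCs, 10.04 ± 0.02 in FGF2/activin EpiSCs and 8.09 ± 0.02 in ESCs. Both kept the order of Perp, and CHIR/XAV EpiSCs were lower than FGF2/activin EpiSCs by log2 changes of -1.75 for Dsp and -0.94 for Pkp2. Jup (plakoglobin) fell in CHIR/XAV EpiSCs against ESCs (-0.35) and rose in FGF2/activin EpiSCs (0.47). In RNA from whole cultures, fewer cells of a kind and less RNA per cell cannot be told apart, and the part of desmosome genes in the Perp result was not tested.

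**Figure D3:**
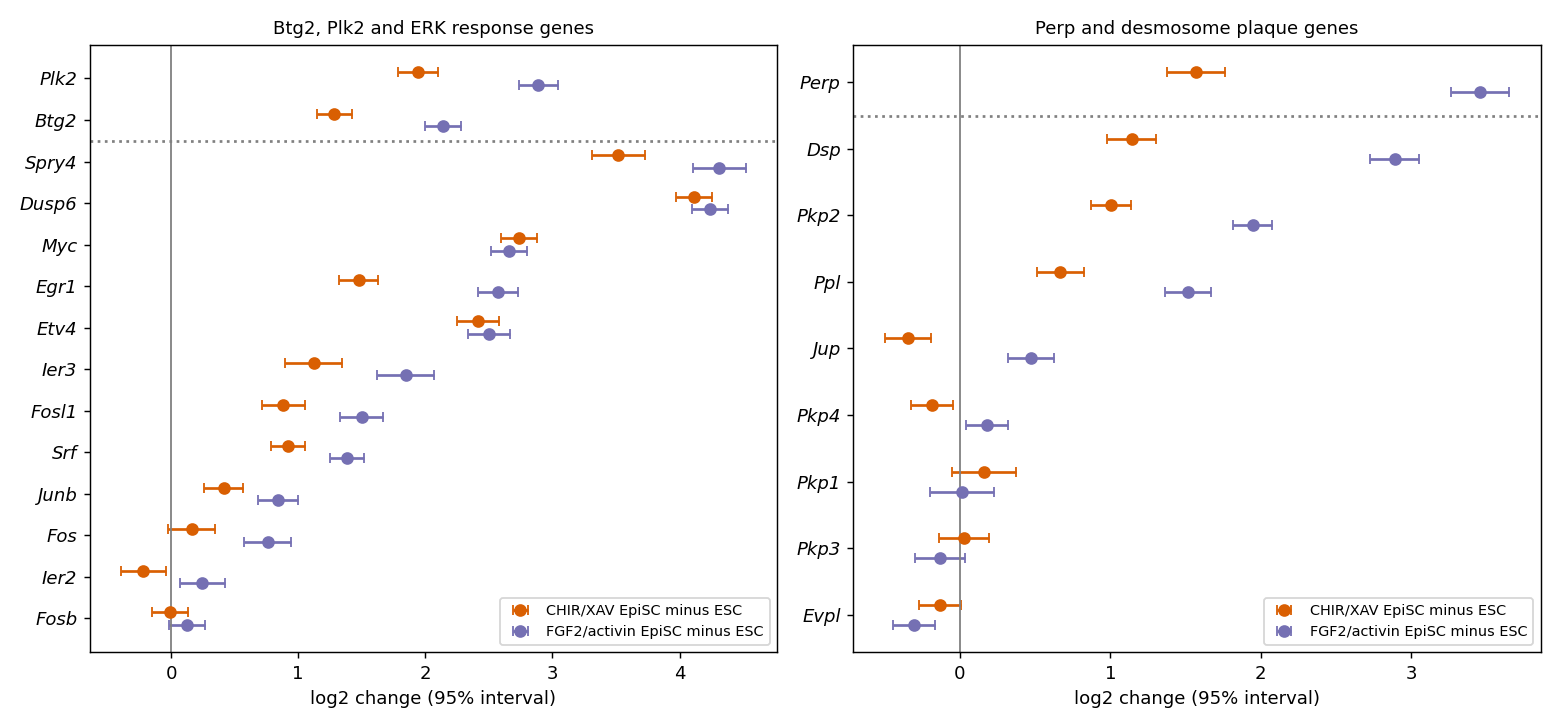
Log2 changes with 95% intervals against ESCs in CHIR/XAV EpiSCs (orange) and FGF2/activin EpiSCs (violet) for Plk2 and Btg2 above 12 ERK response genes (left) and for Perp above 8 desmosome plaque and cornified envelope genes (right). Egr1 lies between Plk2 and Btg2 in FGF2/activin EpiSCs, whereas Dusp6 and Myc have nearly equal changes in both EpiSC groups.

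Genes whose course over the 9 arrays was closest to that of a p53 target were found by the root mean square (RMS) difference of gene-centred log2 values. Genes named only by Gm and a number or as RIKEN clones were left out of this ranking. Closest to Mdm2 were Unc45b, Plod3 and Cttn, with RMS differences of 0.061, 0.064 and 0.066. Closest to Plk2 were Palld, Bin1 and Lrrc8c, at 0.061, 0.087 and 0.088, and closest to Perp were Parva, Cald1 and Sertad4, at 0.11, 0.18 and 0.19. None of these is one of the 10. Within the 10 genes the nearest neighbour of Mdm2 was Eda2r, at 0.20, that of Plk2 was Btg2, at 0.34, and that of Perp was Plk2, at 0.40. The largest distance, 1.68, lay between Perp and Sesn2. These distances follow size of change as well as direction, so genes with small changes, such as Bbc3 and Ccng1 at 0.19, come out near each other.

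Other established p53 targets were compared from a list of 36, of which 31 had a probe set of their own, and the rest were not analysed here. In FGF2/activin EpiSCs against ESCs 19 of 31 were higher and 7 lower, where 27.8% of all genes were higher and 33.5% lower, with a median of 0.23. Dcxr, a carbonyl reductase, rose by 1.82, Ddit4 (REDD1), which restrains mTORC1, by 1.81, Tnfrsf10b, a death receptor for TRAIL, by 1.60, and Apaf1, the core of the apoptosome, by 1.35. In CHIR/XAV EpiSCs against ESCs the list was evenly divided, with 11 higher, 11 lower and a median of -0.084, where 24.7% of all genes were higher and 22.1% lower. There Dcxr rose by 0.97, whereas Abcb1a, a drug efflux pump (-1.26), Pml, the scaffold of nuclear bodies (-1.21), and Gadd45a, a growth arrest gene (-1.04), fell.

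Between the EpiSC cultures 19 of these 31 targets were lower in CHIR/XAV and 4 higher, with a median of -0.53, where 21.1% of all genes were lower and 20.5% higher. Tnfrsf10b showed the largest difference. It measured 8.53, 8.58 and 8.65 in CHIR/XAV EpiSCs, 10.87, 10.86 and 10.85 in FGF2/activin EpiSCs, and 9.32, 9.25 and 9.23 in ESCs. ESCs lay between the EpiSC groups, as they did for Eda2r, and no groups overlapped. The log2 change of Tnfrsf10b between CHIR/XAV and FGF2/activin EpiSCs was -2.28 (SE 0.063, adjusted p = 4.56e-12, limma). Gadd45a averaged 6.36 ± 0.06 in CHIR/XAV EpiSCs, 7.63 ± 0.03 in FGF2/activin EpiSCs and 7.40 ± 0.20 in ESCs, and its log2 change between the EpiSC cultures was -1.27. Pmaip1 (NOXA), a BH3-only death gene, and Steap3, a metalloreductase, were lower in CHIR/XAV as well (-1.22 and -1.07). In CHIR/XAV EpiSCs Pmaip1 was dim, at 4.77, and Steap3, at 5.72, lay just above the array medians of 5.57 to 5.65.

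**Figure D4:**
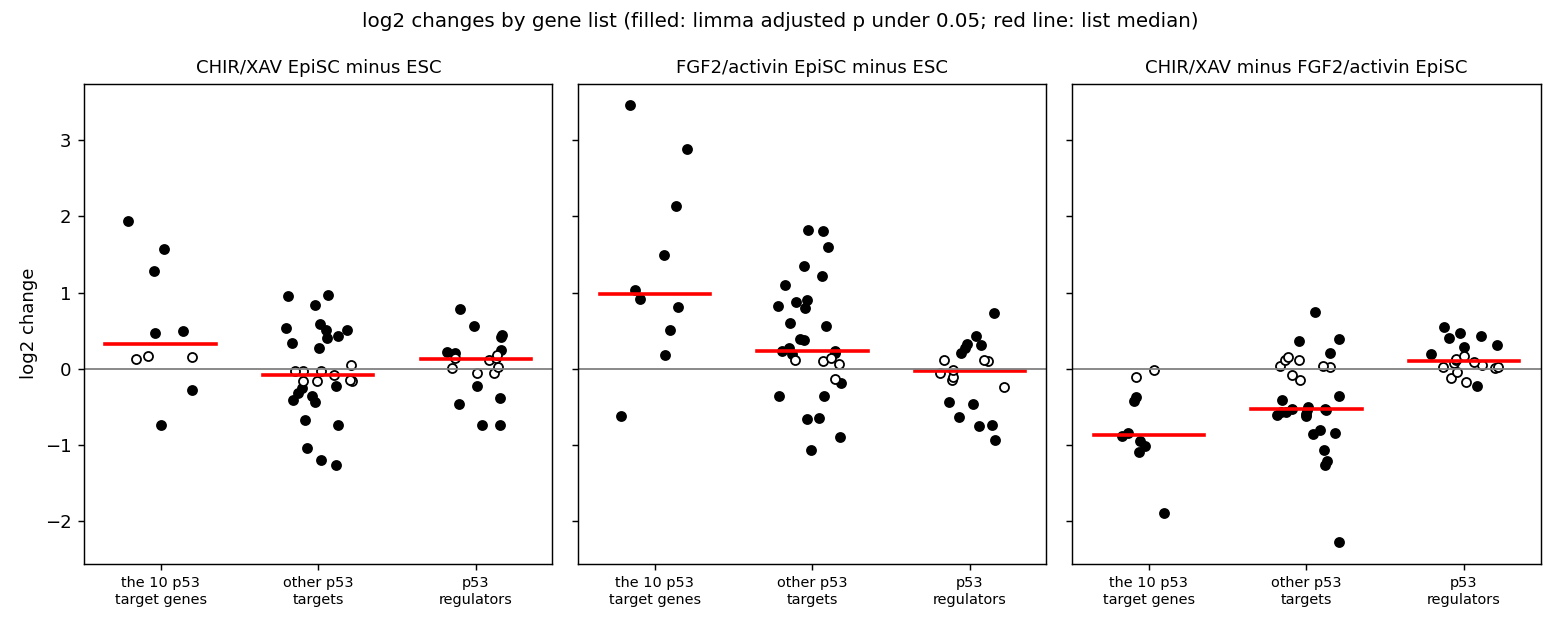
Log2 changes of the 10 p53 target genes, of 31 other p53 targets and of 20 p53 regulators in the 3 comparisons; filled points passed an adjusted p under 0.05 (limma) and red lines are list medians. Between CHIR/XAV and FGF2/activin EpiSCs the medians are -0.87 and -0.53 for both sets of targets and 0.096 for the regulators.

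Regulators of p53 were counted in the same way. Trp53 itself and Rpl11 were not analysed here, and of the 20 measured regulators none changed by 2-fold or more in any comparison. In CHIR/XAV EpiSCs against ESCs 7 were higher and 5 lower, and in FGF2/activin EpiSCs against ESCs 6 were higher and 6 lower. These shares lie near those of all genes, for which CHIR/XAV EpiSCs gave 24.7% higher and 22.1% lower and FGF2/activin EpiSCs 27.8% higher and 33.5% lower. In CHIR/XAV against FGF2/activin EpiSCs 7 were higher and 1 lower, where 20.5% of all genes were higher and 21.1% lower. Mdm4, the partner of Mdm2 that masks the activation domain of p53 (chromosome 1), measured 9.05, 9.26 and 9.30 in CHIR/XAV EpiSCs, 8.92, 8.88 and 8.95 in FGF2/activin EpiSCs, and 9.74, 9.60 and 9.67 in ESCs. Its order was the reverse of that of Mdm2, with ESCs highest and FGF2/activin EpiSCs lowest, and no groups overlapped. Mdm4 fell with a log2 change of -0.47 (SE 0.077, adjusted p = 0.000153, limma) in CHIR/XAV EpiSCs and -0.75 (SE 0.077, adjusted p = 1.12e-06, limma) in FGF2/activin EpiSCs.

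Hipk2, a kinase that phosphorylates p53, fell in either EpiSC group against ESCs, by log2 changes of -0.74 in CHIR/XAV and -0.93 in FGF2/activin EpiSCs. Cdkn2a, whose ARF product inhibits Mdm2, also fell (-0.74 and -0.74) and was dim in every group, averaging 4.91 ± 0.10 in CHIR/XAV EpiSCs, 4.91 ± 0.09 in FGF2/activin EpiSCs and 5.65 ± 0.26 in ESCs, and the p53 relative Trp73 rose (0.56 and 0.73). Usp7, a deubiquitinase of Mdm2 and p53, was lower in FGF2/activin EpiSCs than in ESCs (-0.63). The checkpoint kinase genes Chek1 and Chek2 were higher in CHIR/XAV than in FGF2/activin EpiSCs, by 0.55 and 0.42, and so was Usp7, by 0.40. Ep300, an acetyltransferase coactivator of p53, was higher in CHIR/XAV EpiSCs than in ESCs by 0.78 and than in FGF2/activin EpiSCs by 0.46. It lies on chromosome 15, where 473 genes outside the dimmest 40% had a median log2 change of 0.37 in CHIR/XAV EpiSCs against ESCs, against 0.033 on the other autosomes. The part of that chromosome in the Ep300 result was not tested.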

How the data were processed

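Log2 expression, 1 value per probe set and array, was deposited. The authors made it with RMA (background correction, normalization between arrays, probe summary) in Partek, as the submitters' processing notes name them, without versions. That the scale is log2 follows from the range of the values. Of 35399 probe sets, 21789 carried 1 symbol in GEO's platform annotation, 1621 several and 11989 none. Probe sets with several symbols or none were left out. Symbols were updated by gene identifier (RefSeq, GRCm38.p6), where 19856 of 19938 genes matched, and a gene was represented by its brightest probe set on average over the 9 arrays.

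Groups and replicate numbers came from the titles. A single limma 3.58.1 model (R 4.3.3) over the 9 arrays, without covariates and keeping dim genes, gave the differences, with p-values adjusted by Benjamini-Hochberg over 19938 genes (threshold 0.05). The members, lists and tests were chosen with earlier results of these data known. Named by rule were the 10 genes, Mdm4, and, of the lists of other p53 targets and regulators, up to 4 called genes per comparison with the largest change. Genes named from the other lists, and the genes in the closing observations, were picked as examples after their values were seen. The number of arrays limits the precision. On simulated data for CHIR/XAV EpiSCs against ESCs (19938 genes), 76.1% of 67 genes shifted by 0.5 on the log2 scale were recovered, and 100% of those shifted by 1 or by 2. Genes that were not shifted had no group difference in the simulation, whereas 24.7% were called higher and 22.1% lower in the data. The adjustment for many genes was therefore stricter in the simulation, and its shares do not give the sensitivity of the tests on the data.

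The alternatives averaged all probe sets of a gene, dropped the dimmest 40% of genes, used trend and robust variance, fitted 2 groups alone, centred medians, normalized by quantiles, blocked on replicate number, left out each array, or tested against 1.5-fold with treat. Centring on the median of the 19938 genes was added after seeing the data.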

Additional observations from a re-analysis of the deposited data

How the results depend on the processing

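Apart from the test against 1.5-fold, 507 values of the 10 genes were recomputed under the alternatives, and 493 kept their direction and their side of the threshold; 7 lost a call, 4 gained one and 3 changed sign. All 7 losses and all 3 sign changes were those of Bbc3, and the 4 gains were Mdm2 once and Bbc3 3 times, in CHIR/XAV EpiSCs against ESCs. Much of the agreement in direction was fixed in advance. Each of the 10 genes has 1 probe set, so averaging probe sets repeated its values. The dim filter, the variance model, 2 groups alone, the block and leaving out an array of the uncompared group also cannot alter a log2 change. The test against 1.5-fold called 3 of the 10 genes higher and 0 lower in CHIR/XAV EpiSCs against ESCs and 0 lower in FGF2/activin EpiSCs against ESCs, fewer because it asks for a larger change. Without 1 array each, the Bbc3 difference between CHIR/XAV and FGF2/activin EpiSCs ran from -0.057 to 0.0078. Without the dimmest 40% of genes Bbc3 gave no value.

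The titles do not say whether same-numbered arrays belong together. Correlations of their deviations from the group means were -0.070 to 0.24, against -0.23 to 0.18 for differently numbered arrays of different groups. With the replicate number as a block, 8 genes were called higher in FGF2/activin EpiSCs against ESCs (Bbc3 was lost, adjusted p = 0.0545, limma), and no other call of the 10 genes changed. Centring on the 19938 genes moved the median of all genes in CHIR/XAV EpiSCs against ESCs to -0.13, where it was -0.031, and left 5 higher and 2 lower. Detection against background was not assessed, which limits Bbc3 and other dim genes.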

Other observations

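Some of the 31 other p53 targets ran against the rest between the EpiSC cultures. Sesn1, the sestrin related to Sesn2 and singled out here after its values were seen, measured 7.02, 7.19 and 7.16 in CHIR/XAV EpiSCs, 6.18, 6.45 and 6.52 in FGF2/activin EpiSCs, and 7.47, 7.38 and 7.49 in ESCs. ESCs were highest, as for Sesn2, but FGF2/activin EpiSCs stood clearly below CHIR/XAV EpiSCs, with a log2 change of 0.74 (SE 0.088, adjusted p = 1.14e-05, limma) between CHIR/XAV and FGF2/activin EpiSCs. Sesn1 also fell in each EpiSC group against ESCs, by log2 changes of -0.33 in CHIR/XAV and -1.06 in FGF2/activin EpiSCs.

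DNA repair genes among those targets, likewise grouped after their values were seen, were divided. Polk, a translesion DNA polymerase, averaged 7.52 ± 0.07 in CHIR/XAV EpiSCs, 8.33 ± 0.03 in FGF2/activin EpiSCs and 7.12 ± 0.04 in ESCs (SD, n = 3), and Ercc5, an endonuclease of nucleotide excision repair, averaged 8.31 ± 0.09 in CHIR/XAV EpiSCs, 8.89 ± 0.04 in FGF2/activin EpiSCs and 7.79 ± 0.02 in ESCs. Both rose in each EpiSC group against ESCs and were lower in CHIR/XAV than in FGF2/activin EpiSCs, by log2 changes of -0.81 and -0.57. The damage recognition genes Xpc and Ddb2 fell in FGF2/activin EpiSCs against ESCs instead (-0.37 and -0.36). Xpc also fell in CHIR/XAV EpiSCs against ESCs (-0.26, adjusted p = 0.0211, limma), where the Ddb2 difference of -0.16 was not called (adjusted p = 0.124, limma). Rrm2b, a ribonucleotide reductase subunit, had differences of -0.03 in CHIR/XAV and 0.054 in FGF2/activin EpiSCs against ESCs, neither called (adjusted p = 0.807 and 0.602, limma).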
